A study of Homo sapiens with 6 samples.

Results

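The proteasome is the protease that degrades most ubiquitin-tagged proteins in human cells. Its genes were followed here in LNCaP prostate cancer cells that had become resistant to the androgen receptor blocker enzalutamide and in untreated LNCaP cells. With earlier results of these data known, members were chosen by gene name, not by measured values. They are the genes whose symbols begin with PSMA, PSMB, PSMC, PSMD, PSMF or PSMG followed by a number, without the interferon-inducible subunits PSMB8, PSMB9 and PSMB10, and with PSME3, PSME4, POMP and ADRM1 added. That rule found 43 genes among the 23998 in the count table, and all 43 were among the 15422 genes expressed highly enough to be tested. PSMA8 and PSMB11, subunits known from testis and thymus, had no row and were not analysed here.

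LNCaP is an androgen-responsive human cell line derived from a lymph node metastasis of prostate cancer. The LNCaP-ENZR cells had been kept in rising concentrations of enzalutamide, 5 to 50 µM, for more than 12 months. The medium for that exposure held 10% serum stripped with charcoal, a step that removes steroid hormones. LNCaP-WT cells are labelled as untreated, and the growth protocol for all cells names RPMI medium with 10% fetal bovine serum. Poly(A) RNA of 3 libraries per group was sequenced as 150 bp paired-end reads. ENZR stands here for one derivation of resistant cells, and the labels do not say whether drug or stripped serum was present at harvest, so the effects of resistance, drug and serum cannot be told apart. Separate cultures behind the 3 libraries of a group are not stated either, so p-values cover only library-to-library spread, which can be technical.

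As background, the 26S proteasome is a 20S core capped by 19S regulatory particles. Each core is a barrel of outer alpha and inner beta rings, and PSMB5, PSMB6 and PSMB7 in the beta rings carry the catalytic sites. The 19S base unfolds substrates with its PSMC ATPases, and the lid removes their ubiquitin chains. Dedicated chaperones assemble the core and the base. The transcription factor NRF1, the product of NFE2L1, is known to raise most proteasome genes together when proteasome activity is short, through antioxidant response elements in their promoters.

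Library totals lay between 35790974 and 36610862 counts in LNCaP-ENZR and between 34505712 and 35531519 counts in LNCaP-WT. The biological coefficient of variation, which is the spread between libraries beyond counting error, was 7.41%. All 10 luminal prostate markers listed for LNCaP were detected, with a summed level of 3113 to 3226 CPM (each count relative to the scaled size of its library) in LNCaP-ENZR and 5961 to 6104 CPM in LNCaP-WT. The 5 basal epithelial markers summed to at most 5.21 CPM in LNCaP-ENZR and 17.5 CPM in LNCaP-WT, and 10 endothelial and fibroblast markers to at most 171 CPM in LNCaP-ENZR and 137 CPM in LNCaP-WT.

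Most proteasome genes were higher in the resistant cells, from 1.09-fold to 2.33-fold among those that passed the test. Of the 43 genes, 38 changed (against 69.2% of all tested genes): 36 rose and 2 fell, and the other 5 missed the threshold at an adjusted p under 0.05 by edgeR's quasi-likelihood test. Those 36 are 83.7% of the genes, against 34.4% of all tested genes called higher, and the 2 that fell are 4.65%, against 34.8% of all tested genes called lower. On the log2 scale the 43 genes changed by a median of 0.43, which is 1.35-fold, against a median of -0.01 over all tested genes. Of the 43 genes, 7 passed the test and were at least 1.5-fold higher, against 19.2% of all tested genes. That count is near the share over all tested genes, so it does not set the proteasome genes apart. The same 36 genes had all 3 LNCaP-ENZR libraries above all 3 LNCaP-WT libraries, which held for 35.8% of all tested genes. The 2 that fell had every LNCaP-ENZR library below every LNCaP-WT library, against 36.4% of all tested genes, and the groups overlapped in the other 5.

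Together the 43 genes took 0.568 ± 0.0147% of all counts in LNCaP-ENZR libraries and 0.461 ± 0.0105% in LNCaP-WT libraries (SD, n = 3 each). Their summed level was 5852 ± 180.0 CPM in LNCaP-ENZR and 4474 ± 106 CPM in LNCaP-WT, or 1.31-fold. In RNA from a bulk culture, a change in the share of cells expressing a gene and a change in its RNA per cell cannot be told apart.

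**Figure D1:**
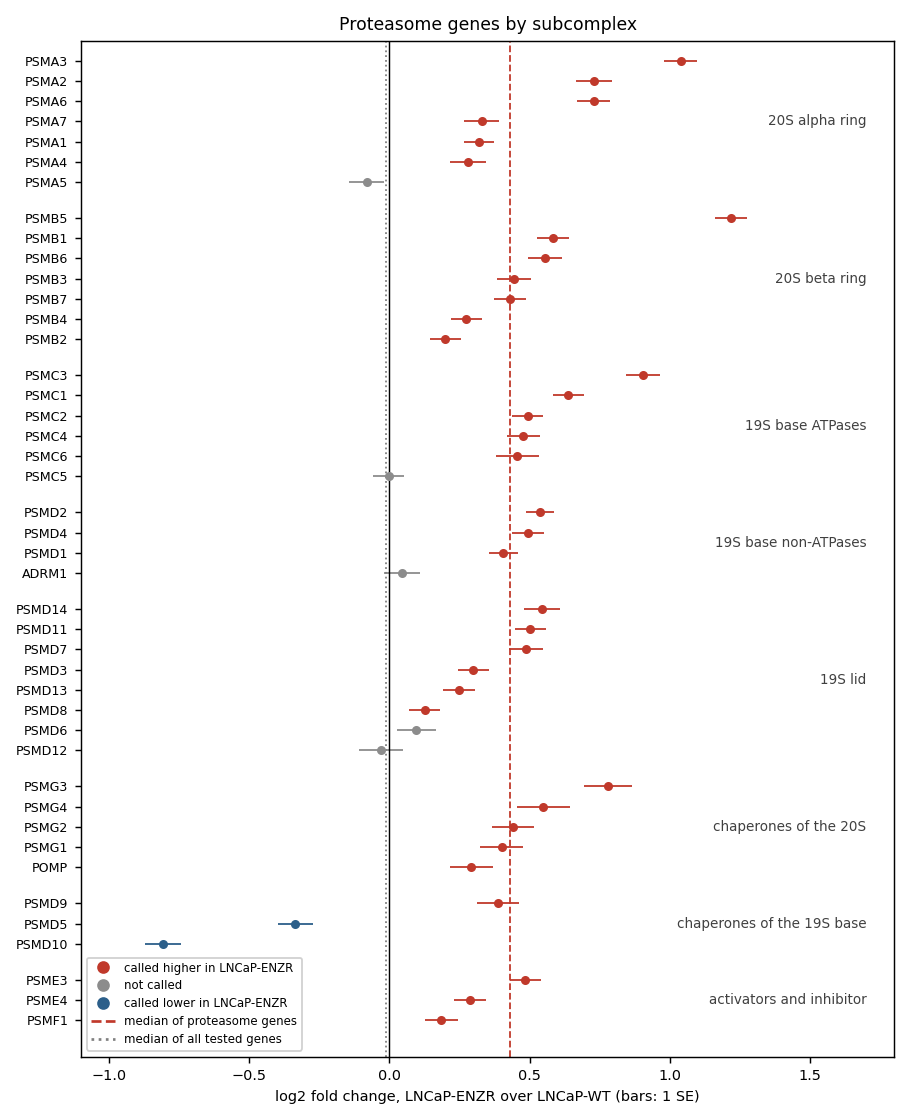
Log2 fold change of each proteasome gene, LNCaP-ENZR over LNCaP-WT, grouped by subcomplex (points, with bars of 1 SE from edgeR, 3 libraries per group); red is called higher, blue called lower and grey not called. All but a few points lie right of 0, with PSMB5 at 1.22 and PSMA3 at 1.04 farthest right and PSMD10 at -0.81 farthest left; dashed and dotted lines mark the medians of the proteasome genes (0.43) and of all tested genes (-0.01).

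The counts by subcomplex that follow come from short lists and stand against 34.4% of all tested genes called higher and 34.8% called lower. In the outer alpha ring, which gates entry to the core, 6 of 7 subunits rose, with a median log2 fold change of 0.33. PSMA3 moved farthest. It stood at 109, 107 and 101 CPM in the LNCaP-ENZR libraries, against 51.4, 53.1 and 50.2 CPM in the LNCaP-WT libraries. Every LNCaP-ENZR library was thus above every LNCaP-WT library, with a log2 fold change of 1.04 ± 0.060 (SE; adjusted p = 1.3e-11, edgeR). PSMA2 and PSMA6 were both 1.66-fold higher, while PSMA7, PSMA1 and PSMA4 were 1.26-fold, 1.25-fold and 1.21-fold higher. PSMA5 was the exception in this ring, with 99.2, 104 and 89.7 CPM in LNCaP-ENZR, against 101, 106 and 103 CPM in LNCaP-WT. Its groups overlapped, and its log2 fold change of -0.08 ± 0.062 did not pass (adjusted p = 0.252, edgeR).

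All 7 beta subunits of the constitutive core rose, with a median of 0.44. The highest was PSMB5, the chymotrypsin-like subunit and the main target of the drug bortezomib. It had 161, 176 and 167 CPM in LNCaP-ENZR libraries, against 73.5, 69.9 and 73.2 CPM in LNCaP-WT libraries. That is 2.33-fold, a log2 fold change of 1.22 ± 0.057, and the highest of the 43 genes (adjusted p = 5.83e-13, edgeR). PSMB6, the caspase-like subunit, had 109, 122 and 108 CPM in LNCaP-ENZR, against 75.5, 77.9 and 77.1 CPM in LNCaP-WT (1.47-fold, adjusted p = 1.23e-07, edgeR). PSMB7, the trypsin-like subunit, had 112, 121 and 115 CPM in LNCaP-ENZR, against 83.2, 88.3 and 86.7 CPM in LNCaP-WT (1.35-fold, adjusted p = 1.76e-06, edgeR). All 3 catalytic genes were thus separated between groups. Of the non-catalytic subunits, PSMB1, PSMB3 and PSMB4 rose by log2 fold changes of 0.58, 0.44 and 0.27; the call of PSMB4 was lost with offsets for gene length (adjusted p = 0.0705, edgeR). PSMB2 changed least in this ring, with 157, 161 and 156 CPM in LNCaP-ENZR, against 132, 144 and 136 CPM in LNCaP-WT (1.15-fold, adjusted p = 0.00299, edgeR). Its call was lost when counts were scaled by library totals alone (adjusted p = 0.0679, edgeR).

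The catalytic genes did not keep their proportions. Per kilobase of gene model, the ratio of PSMB5 to PSMB6 was 0.982 to 1.05 over the 3 LNCaP-ENZR libraries, against 0.609 to 0.661 over the 3 LNCaP-WT libraries. The ratio of PSMB5 to PSMB7 was 1.14, 1.15 and 1.15 in LNCaP-ENZR, against 0.699, 0.626 and 0.668 in LNCaP-WT. On this scale PSMB5 was near PSMB6 and above PSMB7 in the resistant cells, and below both in the untreated cells. PSMB6 relative to PSMB7 moved less, at 1.14, 1.17 and 1.09 in LNCaP-ENZR, against 1.06, 1.03 and 1.04 in LNCaP-WT. None of these 3 ratios overlapped between groups, and each gave p = 0.1 in a two-sided exact permutation test, the smallest p that 3 libraries against 3 allow.

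**Figure D2:**
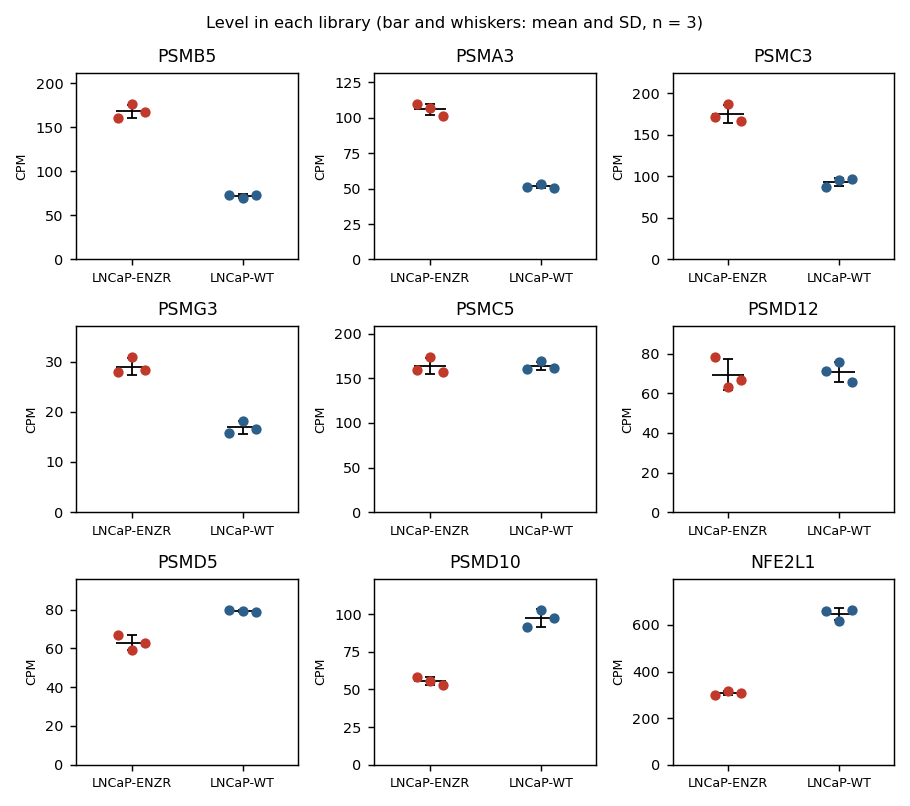
Level in CPM of 8 proteasome genes and NFE2L1 in each library, LNCaP-ENZR left in red and LNCaP-WT right in blue, with mean and SD (n = 3). PSMB5, PSMA3, PSMC3 and PSMG3 are higher in all LNCaP-ENZR libraries, PSMC5 and PSMD12 overlap, and PSMD5, PSMD10 and NFE2L1 are lower in all LNCaP-ENZR libraries.

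Of the 6 ATPases of the 19S base, 5 rose, with a median log2 fold change of 0.49. PSMC3, whose tail helps to open the gate of the core, stood highest, at 171, 187 and 167 CPM in LNCaP-ENZR, against 87.7, 95.8 and 96.5 CPM in LNCaP-WT. This was 1.87-fold, with a log2 fold change of 0.91 ± 0.061 (adjusted p = 1.08e-10, edgeR). PSMC1 was 1.56-fold higher, and PSMC2, PSMC4 and PSMC6 were 1.41-fold, 1.39-fold and 1.37-fold higher. PSMC5 did not pass, with 159, 174 and 157 CPM in LNCaP-ENZR, against 160.2, 169 and 162 CPM in LNCaP-WT. Its log2 fold change was -0.0033 ± 0.056 (adjusted p = 0.963, edgeR), so PSMC5 and PSMC3, members of the same ATPase ring, lay at opposite ends of this list.

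The 4 other base subunits include the scaffolds PSMD1 and PSMD2 and the ubiquitin receptors PSMD4 and ADRM1, and 3 of the 4 rose. PSMD2 was at 515, 546 and 518 CPM in LNCaP-ENZR, against 357, 360.4 and 369.9 CPM in LNCaP-WT (1.45-fold, adjusted p = 1.17e-08, edgeR). PSMD4 was 1.41-fold and PSMD1 1.33-fold higher. ADRM1 had 83.5, 94.7 and 84.4 CPM in LNCaP-ENZR, against 84.8, 82.6 and 87.2 CPM in LNCaP-WT. The groups overlapped, with a log2 fold change of 0.045 ± 0.063 (adjusted p = 0.536, edgeR), so the ubiquitin receptors differed in whether they passed, although the difference between them was not tested.

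The lid showed a lower median, 0.27, with 6 of 8 subunits called higher. PSMD14, the enzyme that cuts ubiquitin chains from substrates, led it with 82.0, 72.4 and 77.6 CPM in LNCaP-ENZR, against 52.6, 54.5 and 52.3 CPM in LNCaP-WT (1.46-fold, adjusted p = 3.78e-07, edgeR). PSMD11, a scaffold of the lid, and PSMD7, the partner of PSMD14, were 1.42-fold and 1.40-fold higher, and PSMD3 and PSMD13 were 1.23-fold and 1.19-fold higher. PSMD8 passed narrowly, with 159, 173 and 161 CPM in LNCaP-ENZR, against 148, 149.6 and 154 CPM in LNCaP-WT. Its 1.09-fold difference had an adjusted p of 0.0473 (edgeR), and that call was lost in 11 of 16 alternative analyses. Among these were the fits without LNCaP-ENZR library 2 (adjusted p = 0.105) and without LNCaP-WT library 1, 2 or 3 (adjusted p = 0.154, 0.097 and 0.0681, edgeR). PSMD6 had 58.7, 54.1 and 50.2 CPM in LNCaP-ENZR, against 51.7, 51.6 and 49.4 CPM in LNCaP-WT, and did not pass (adjusted p = 0.228, edgeR). PSMD12 had 78.4, 63.4 and 66.6 CPM in LNCaP-ENZR, against 71.2, 75.9 and 65.7 CPM in LNCaP-WT, the lowest fold change of the lid and also not called (log2 -0.031 ± 0.078, adjusted p = 0.739, edgeR). Both of these overlapped between groups. SEM1, a small lid subunit whose symbol falls outside the name rule, had 83.8, 89.1 and 80.2 CPM in LNCaP-ENZR, against 52.4, 57.7 and 52.4 CPM in LNCaP-WT (1.56-fold, adjusted p = 5.06e-08, edgeR).

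Among the 43 genes, those that build the core and those that build the base moved in different ways. All 5 chaperones of the 20S core rose, with a median log2 fold change of 0.44. PSMG3, which with PSMG4 helps to form the alpha ring, had 27.8, 30.9 and 28.2 CPM in LNCaP-ENZR, against 15.8, 18.3 and 16.6 CPM in LNCaP-WT (1.72-fold, adjusted p = 1.46e-07, edgeR). PSMG4, PSMG2 and PSMG1 were 1.46-fold, 1.36-fold and 1.32-fold higher. POMP, which guides beta subunits onto the alpha ring, had 107, 88.8 and 84.1 CPM in LNCaP-ENZR, against 74.4, 80.4 and 73.5 CPM in LNCaP-WT (1.22-fold, adjusted p = 0.0031, edgeR). POMP was the least changed of these chaperones, and its groups did not overlap, although its call was lost with offsets for gene length (adjusted p = 0.0906, edgeR).

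Of the 3 chaperones of the 19S base among the 43 genes, 2 fell, and these were the only ones of the 43 called lower. PAAF1, counted below among other proteasome-bound or assembly proteins, was not called (log2 0.0071, adjusted p = 0.935, edgeR). PSMD10, also called gankyrin, binds the ATPase PSMC4 and is known as an oncoprotein in liver cancer. It had 58.1, 55.7 and 53.2 CPM in LNCaP-ENZR, against 91.3, 103 and 97.7 CPM in LNCaP-WT. The difference was 1.75-fold lower in LNCaP-ENZR, a log2 fold change of -0.81 ± 0.064 (adjusted p = 1.41e-09, edgeR). PSMD5, which binds PSMC2, had 66.9, 59.1 and 62.6 CPM in LNCaP-ENZR, against 80.0, 79.2 and 78.8 CPM in LNCaP-WT. It was 1.26-fold lower (log2 -0.34 ± 0.062, adjusted p = 9.29e-05, edgeR). PSMD9, which binds PSMC3, moved the other way, with 52.0, 61.6 and 51.1 CPM in LNCaP-ENZR, against 41.4, 42.5 and 42.0 CPM in LNCaP-WT (1.31-fold, adjusted p = 0.000147, edgeR).

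PSME3 and PSME4, alternative caps of the core, and its inhibitor PSMF1 all rose. PSME1 and PSME2, which form another cap, did not rise and are given below. PSME3, the nuclear activator PA28 gamma, had 186, 185 and 197 CPM in LNCaP-ENZR, against 140.4, 137 and 128 CPM in LNCaP-WT (1.40-fold, adjusted p = 2.39e-07, edgeR). PSME4, the activator PA200, was 1.22-fold higher. PSMF1, known as the inhibitor PI31, had 77.2, 83.6 and 80.8 CPM in LNCaP-ENZR, against 70.2, 70.7 and 71.8 CPM in LNCaP-WT (1.14-fold, adjusted p = 0.00949, edgeR). Scaled by library totals alone, PSMF1 missed the threshold (adjusted p = 0.145, edgeR).

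The subcomplexes did not shift equally as sums of FPKM, the authors' counts scaled by gene length and library total. Lid over base was 0.626, 0.603 and 0.625 in LNCaP-ENZR libraries, against 0.692, 0.689 and 0.698 in LNCaP-WT libraries, lower in every LNCaP-ENZR library. The sum of the core over the sum of the regulatory particle was 1.48, 1.49 and 1.445 in LNCaP-ENZR. It was 1.35, 1.405 and 1.335 in LNCaP-WT, and was higher in every LNCaP-ENZR library. By median log2 fold change the order was the reverse, at 0.44 for the core and 0.47 for the regulatory particle. Core gene models were also shorter, with a median of 1113 against 2051 bases. The ratios were not recomputed with offsets for gene length. The beta over the alpha subunits overlapped, at 1.97, 2.04 and 2.08 in LNCaP-ENZR, against 1.995, 2.03 and 2.03 in LNCaP-WT. In summed CPM the lid was 1.22-fold higher, the ATPases and the beta ring 1.39-fold, the other base subunits 1.37-fold and the alpha ring 1.34-fold.

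Although the assembled core holds its subunits in equal numbers, their transcript levels per length were far from equal in either group. PSMB4 was the highest core gene in all 6 libraries, with an FPKM of 307 to 335 in LNCaP-ENZR and 268 to 297 in LNCaP-WT. PSMA5 was the lowest in all 6, with an FPKM of 22.9 to 26.3 in LNCaP-ENZR and 27.2 to 28.7 in LNCaP-WT. The ratio between them was 12.7 to 13.4 in LNCaP-ENZR and 9.84 to 10.4 in LNCaP-WT, without overlap between groups. In the regulatory particle, PSMD2 was highest and PSMD12 lowest in every library, and their ratio was 10.9 to 14.3 in LNCaP-ENZR and 7.89 to 9.34 in LNCaP-WT. The lengths behind FPKM are those of the authors' gene models, which can be longer than the transcripts present, so such levels are approximate between genes.

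**Figure D3:**
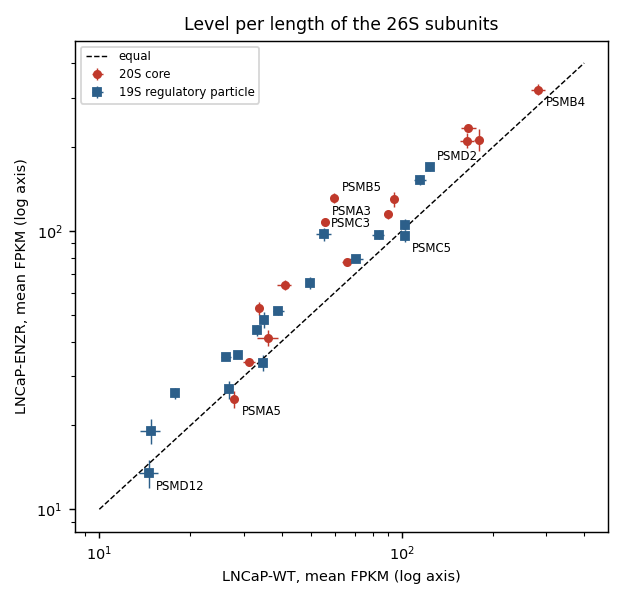
Mean FPKM of the 14 core (red circles) and 18 regulatory particle subunits (blue squares) in LNCaP-ENZR (y axis) and LNCaP-WT (x axis), both on log axes, with SD (n = 3); the dashed line marks equal levels. Most points lie above the line, PSMB5 and PSMA3 farthest from it, while PSMA5, PSMC5 and PSMD12 lie near it.

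The interferon-inducible counterparts of the catalytic subunits did not follow. PSMB9, which replaces PSMB6 in immunoproteasomes, was at 0.229, 0.0283 and 0.0573 CPM in LNCaP-ENZR, against 1.04, 1.09 and 1.18 CPM in LNCaP-WT. That is 11 counts in all against 120, a ratio of 0.0944. Its 95% exact binomial interval, for counting error only, was 0.0459 to 0.175. PSMB9 was expressed highly enough to be tested only in LNCaP-WT, so its test (adjusted p = 1.53e-05, edgeR) adds no separate support to the fall. A stricter expression filter left PSMB9 out. LNCaP-ENZR library 1 holds 8 of the 11 counts, and without it the fitted fold change was 23.9-fold lower, against 10.3-fold lower with all libraries. PSMB10, the counterpart of PSMB7, was at 9.50, 8.82 and 9.11 CPM in LNCaP-ENZR, against 13.9, 14.5 and 16.1 CPM in LNCaP-WT (1.62-fold lower, adjusted p = 5.75e-06, edgeR). Both fell without overlap, from levels far under those of the constitutive genes. PSMB8, the counterpart of PSMB5, was barely detected, at 22 counts in LNCaP-ENZR and 30 in LNCaP-WT, with a ratio of 0.755 and an interval of 0.415 to 1.35 (adjusted p = 0.604, edgeR).

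By level per length, PSMB10 made up 7.37 ± 0.518% of the sum of PSMB7 and PSMB10 in LNCaP-ENZR and 14.8 ± 0.869% in LNCaP-WT (SD, n = 3 each). PSMB9 made up 0.0789 ± 0.0829% of the sum of PSMB6 and PSMB9 in LNCaP-ENZR and 1.18 ± 0.0679% in LNCaP-WT. Constitutive subunits thus dominated each pair in both groups, and by more in the resistant cells for both of these pairs. PSME1 and PSME2 form the interferon-inducible PA28 cap of the core. PSME1 had 73.7, 77.5 and 71.4 CPM in LNCaP-ENZR, against 82.5, 87.1 and 83.1 CPM in LNCaP-WT (1.14-fold lower, adjusted p = 0.0105, edgeR). That call was lost without LNCaP-ENZR library 3 (adjusted p = 0.116) and without LNCaP-WT library 2 (adjusted p = 0.0513, edgeR). PSME2 had 59.9, 70.1 and 60.0 CPM in LNCaP-ENZR, against 56.2, 65.5 and 59.0 CPM in LNCaP-WT, and did not pass (adjusted p = 0.406, edgeR). In all, 3 of these 5 genes fell (60%, against 34.8% of all tested genes) and none rose (against 34.4%). The 3 include PSMB9, which was tested only through its level in LNCaP-WT, and PSME1, whose call was not stable. Leukocytes express immunoproteasome subunits strongly, and 9 of 10 leukocyte markers listed had a row. They summed to 16.1 to 19.9 CPM in LNCaP-ENZR and 14.3 to 15.8 CPM in LNCaP-WT, none was at 0 in every library, and CD68 alone made up 15.2 to 19.1 CPM of the sum in LNCaP-ENZR and 13.4 to 14.6 CPM in LNCaP-WT. Their part in these results was not tested.

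**Figure D4:**
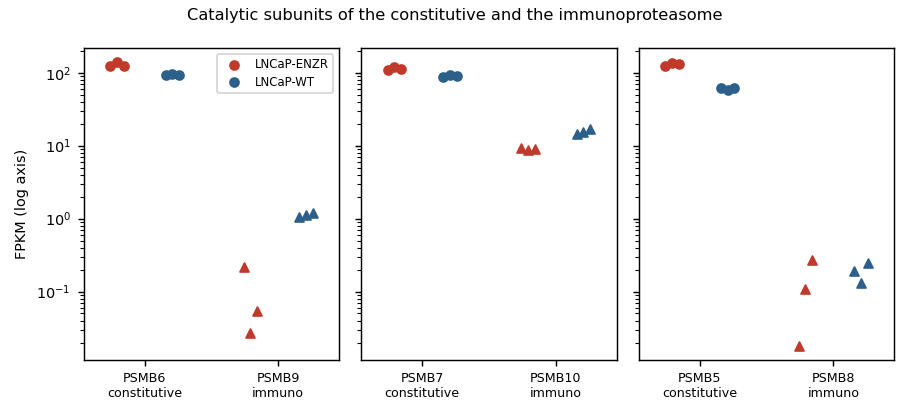
FPKM (log axis) of the constitutive catalytic subunits (circles) and their immunoproteasome counterparts (triangles) in each library, LNCaP-ENZR in red left of LNCaP-WT in blue. PSMB6, PSMB7 and PSMB5 are higher in LNCaP-ENZR, PSMB9 and PSMB10 are lower in LNCaP-ENZR, and the 2 groups of PSMB8 overlap.

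The known regulators of proteasome genes were read at the same RNA level. Of 13 genes of the NRF1 pathway, 3 rose (23.1%, against 34.4% of all tested genes) and 5 fell (38.5%, against 34.8%). The other 5 were not called (38.5%, against 30.8%), and the median of the 13 was -0.10 on the log2 scale. NFE2L1 itself had 298, 318 and 308 CPM in LNCaP-ENZR, against 658, 616 and 666 CPM in LNCaP-WT. It was 2.10-fold lower (log2 -1.07 ± 0.052, adjusted p = 9.79e-13, edgeR), opposite in sign to most of the subunit genes. NRF1 is made in the membrane of the endoplasmic reticulum and is freed by VCP, NGLY1 and the protease DDI2, so its RNA level need not follow its activity. NGLY1, the enzyme that removes its sugars, was 1.26-fold higher and passed, whereas VCP and DDI2 did not. NFE2L2, which encodes the related factor NRF2, had 45.6, 42.9 and 43.3 CPM in LNCaP-ENZR, against 24.2, 25.2 and 24.6 CPM in LNCaP-WT (1.78-fold, adjusted p = 3.77e-09, edgeR). MAFF, a partner of both factors, had 3.18, 3.99 and 3.35 CPM in LNCaP-ENZR, against 9.06, 8.62 and 8.68 CPM in LNCaP-WT (2.51-fold lower, adjusted p = 8.61e-08, edgeR). Thus the 2 related factors differed in sign at the RNA level. The ER ubiquitin ligase genes SYVN1 and SEL1L and the partner MAFG also fell, and FBXW7, a ligase subunit that acts on NRF1, rose.

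Genes that act beside the proteasome moved in both directions. Of 12 other proteasome-bound or assembly proteins, 5 rose, 1 fell and 6 were not called (median 0.13). SEM1 was the highest of them, and the lowest was ZFAND2A, a stress-induced zinc finger protein that binds the 19S particle. ZFAND2A had 8.67, 8.28 and 9.56 CPM in LNCaP-ENZR, against 16.1, 16.2 and 14.5 CPM in LNCaP-WT (1.77-fold lower, adjusted p = 8.23e-07, edgeR). Of 6 genes for ubiquitin and its activating enzymes, 3 rose and 1 fell. RPS27A, which encodes ubiquitin fused to a ribosomal protein, was highest (1.93-fold, adjusted p = 1.29e-11, edgeR), and UBA6, a second activating enzyme, was lowest (1.55-fold lower, adjusted p = 0.000514, edgeR). Of 12 ubiquitin shuttles and VCP cofactors, 5 rose and 3 fell. The VCP cofactor NSFL1C had the lowest fold change of these (1.49-fold lower, adjusted p = 1.15e-06, edgeR). For comparison, 34.4% of all tested genes were called higher and 34.8% lower. These shares were 41.7% and 8.33% for the bound or assembly proteins, and 50% and 16.7% for the ubiquitin and activating enzyme genes. For the shuttles and cofactors they were 41.7% and 25%.

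Promoters were available for 37 of the 43 genes, as the RefSeq sequence (GRCh38.p14) from 250 bases before to 50 bases after the start. PSMA7, PSMB1, PSMB6, PSMB7, PSMD4 and PSMG3 had no entry. The core of the antioxidant response element, searched as TGACNNNGC on both strands, was in 11 of the 37 promoters (29.7%), against 15.1% of 12062 promoters of tested genes. It occurred in 8 of 30 promoters of genes called higher, 1 of 2 called lower and 2 of 5 not called. A match is a description and not a binding site. CCAAT was in 18 of the 37 promoters (48.6%, against 36.5% of tested genes) and CACGTG in 3 (8.1%, against 10.0%). To show what the matched element looks like in members that moved differently, 41 bases around it are given on the strand of the gene, with the element in capitals. PSMB3 (chr17:38752621-38752661, plus strand), PSMD3 (chr17:39980754-39980794, plus) and PSMG2 (chr18:12658683-12658723, plus) rose, PSMD5 (chr9:120843032-120843072, minus) fell, and ADRM1 (chr20:62302743-62302783, plus) and PSMD12 (chr17:67366718-67366758, minus) did not pass.
PSMB3: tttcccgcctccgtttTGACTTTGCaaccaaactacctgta
PSMD3: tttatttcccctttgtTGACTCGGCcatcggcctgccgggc
PSMG2: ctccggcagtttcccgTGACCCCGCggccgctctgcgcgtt
PSMD5: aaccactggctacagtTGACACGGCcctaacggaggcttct
ADRM1: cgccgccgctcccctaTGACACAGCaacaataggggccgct
PSMD12: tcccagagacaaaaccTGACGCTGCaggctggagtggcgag
The match ends 29 bases before the start in PSMD3 and 31 bases before it in PSMG2. It ends 96 bases before the start in PSMB3, 126 in PSMD5, 129 in ADRM1 and 157 in PSMD12. The element was thus present both in genes that rose and in genes that fell or did not pass. PSMB5 and PSMA3, the genes with the largest rises, had no such letters in this window.

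The position of the genes was compared with the change of their chromosomes. Chromosome 14 carries 5 members, PSMB5, PSMA3, PSMA6, PSMC1 and PSMC6, and all 5 rose, by a median of 0.73 on the log2 scale. The other 497 tested genes of chromosome 14 had a median of 0.34, the highest of any chromosome, and 54.3% of them were called higher. Relative to that median, PSMB5 was at 0.88, PSMA3 at 0.70, PSMA6 at 0.39, PSMC1 at 0.30 and PSMC6 at 0.12. POMP, at 0.29 on chromosome 13, was level with the median of 0.30 of the other genes there, and PSMD10, at -0.81, lay on the X chromosome, where that median was -0.14. Without the members on chromosome 14, 31 of 38 genes (81.6%) were called higher (median 0.39). With each chromosome's median subtracted, the median of the 43 genes was 0.41. Both of these values were computed after seeing the data.

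**Figure D5:**
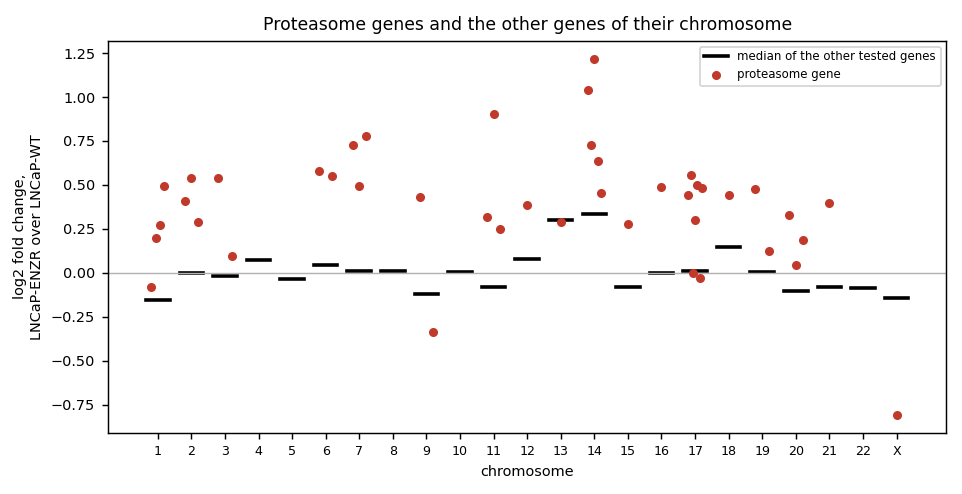
Log2 fold change, LNCaP-ENZR over LNCaP-WT, of each proteasome gene (red points) by chromosome, with the median of the other tested genes on that chromosome (black bars). The bar of chromosome 14, at 0.34, is the highest and all 5 of its proteasome genes lie above it; PSMD10 is the single point on the X chromosome, at -0.81.

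Some values rest on reads that may be shared. In the GENCODE 29 annotation, 11 of the 43 genes have processed or other pseudogenes named after them, 30 in all, of which 13 belong to PSMC1, 4 to PSMA6 and 3 each to PSMA2 and PSMD10. The exons of PSMC1 overlap those of NRDE2 on the opposite strand over 75.8% of their length, and whether counting used strand is not given in the sources used here. NRDE2 had 8.93, 10.3 and 10.3 CPM in LNCaP-ENZR, against 7.18, 6.18 and 6.03 CPM in LNCaP-WT, far below PSMC1 at 163, 165 and 151 CPM in LNCaP-ENZR and 104, 102 and 101 CPM in LNCaP-WT. Overlaps of at least 10% affect 11 members in that annotation. On the opposite strand they are PSMD7 (30.7%, with a non-coding transcript), PSMA2 (19.5%, with a pseudogene), PSMC5 (19.5%, with FTSJ3), PSMG2 (13.9%, with CEP76), PSMG4 (13.3%, with SLC22A23), ADRM1 (11.4%, with LAMA5) and PSMD1 (10.8%, with HTR2B). On the same strand, gene models known only by clone names overlap PSMA1 (24.7%), PSMD9 (14.9%), PSMA2 (14.6%) and PSMA6 (14.1%). These genes may therefore hold or lack some reads. LAMA5 had 120.0, 125 and 135 CPM in LNCaP-ENZR, against 332, 285 and 355 CPM in LNCaP-WT (2.56-fold lower, adjusted p = 5.09e-11, edgeR), and its part in the value of ADRM1 was not tested. The gene models of the members were short, with a median of 1956 bases against 3858 over all tested genes, and with offsets for gene length their median log2 fold change was 0.34.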

How the data were processed

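Poly(A) RNA of 3 LNCaP-ENZR and 3 LNCaP-WT libraries was analysed from tables the authors deposited. Tools named in the submitters' processing notes are fastp, HISAT2 and HTSeq, and the build is GRCh38; the sources used here give neither annotation, counting mode nor strand setting. The deposited counts are raw counts per gene. The deposited FPKM values hold the same counts scaled by gene length and library total: all 23998 genes had one implied length within 0.001%.

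Counts were tested in edgeR 4.0.16 (R 4.3.3; TMM scaling, default filter, robust quasi-likelihood F test, two-sided, Benjamini-Hochberg over 15422 genes, called under 0.05). CPM uses TMM-scaled library sizes, and SEs derive from the F statistic. DESeq2 1.42.0 and limma 3.58.1 served as alternatives. The fit was tested on simulated data. Pairs of libraries within groups had chi-square values of 3.83 to 12.9 per degree of freedom, so none was counted as a duplicate. Motifs were searched in RefSeq promoters of GRCh38.p14.

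The members and lists were chosen with earlier results of these data known. Values per library are given for the highest and lowest fold change of each subcomplex, the catalytic subunits, and members called lower or not called, and values or fold changes for the extremes of the other lists; PSMB8, PSMB9, PSMB10, PSME1, PSME2 and NFE2L1 are named by the same rule. NRDE2, LAMA5, PSMC1 and the markers were added for the checks they serve. PAAF1 was named after its values were seen. One gene that this rule names is not reported here.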

Additional observations from a re-analysis of the deposited data

How the results depend on the processing

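Of 38 called proteasome genes, 33 kept their call and direction in all 16 alternatives. The number called higher was 36, and 32 to 36 in the alternatives. The median log2 fold change of 0.43 was 0.34 with library totals alone and 0.34 with offsets for gene length. With limma it was 0.34 on log2(FPKM + 0.1) and 0.31 on log2(FPKM + 1), and leaving out 1 library gave 0.40 to 0.47. Over all genes of the fit the median moved too, from -0.01 to -0.10 with library totals alone. In the limma fits it was -0.09 with 0.1 added and -0.06 with 1 added. PSMB2, PSMB4, POMP, PSMF1 and PSMD8 lost their call in at least 1 alternative. PSMD8 changed sign with length offsets (-0.0046). Genes that did not pass changed sign too. ADRM1 was at -0.042 with totals and -0.044 and -0.042 with limma, and at -0.0066 to 0.093 with 1 library left out. PSMC5 was at 0.0056 with DESeq2 size factors, 0.0044 without the filter and 0.0069 in DESeq2's test, and at -0.041 to 0.047 with 1 library left out. PSMD12 was at 0.024 with length offsets and -0.12 to 0.040 with 1 library left out. PSME2 was at -0.014 with totals, -0.015 in both limma fits and -0.11 with length offsets. PSMB8 was at -1.42 to 0.12 with 1 library left out. PSMA5 was called lower with totals (adjusted p = 0.0204) and with limma (adjusted p = 0.0286 and 0.0288), and PSMC5 with length offsets (adjusted p = 0.0316, edgeR). The cause of these changes was not tested.

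Same-numbered libraries of the groups had correlations of deviations of -0.021, 0.038 and 0.098 across genes, and LNCaP-ENZR library 1 correlated best with LNCaP-WT library 2 (0.147), so the numbers were not taken to pair them. With the replicate block, 36 members were called higher and 2 lower.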

Other observations

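Within LNCaP-ENZR, 32 of 43 proteasome genes were above their group mean in library 2 and 5 of 43 in library 3. Within LNCaP-WT, 33 of 43 were above it in library 2. The same count was not made over all tested genes, so whether these shifts are particular to proteasome genes was not tested. The antisense-named row PSMA3-AS1 had 33.8, 26.8 and 28.1 CPM in LNCaP-ENZR, against 37.6, 41.3 and 35.9 CPM in LNCaP-WT, while PSMA3 was higher in LNCaP-ENZR. It was not alone: PSMG3-AS1 was 5.94-fold lower (adjusted p = 9.47e-11, edgeR), while PSMG3 was higher. PSMD6-AS2 was 1.99-fold lower (adjusted p = 0.0276, edgeR), at 89 counts in LNCaP-ENZR against 183 in LNCaP-WT, and PSMD6 was not called. Over all tested genes, 34.8% were called lower. These antisense-named rows were named after their values were seen.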
